A study of Mus musculus with 23 samples.

Results

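Stimulation through CD3 and CD28 in the presence of niacin was examined in mouse CD4+ T cells labelled as knockout for the niacin receptor, in 5 of the 23 RNA-seq libraries of the series. The stimulated group held 3 libraries (numbers 1, 2 and 3) of Gpr109a-/- cells cultured for 72 h with antibodies against CD3 and CD28, IL-2 at 30 IU/ml and niacin at 5 mM. The unstimulated group held 2 libraries (numbers 2 and 3) of Gpr109a-/- cells cultured for 72 h with the same IL-2 and niacin and without the antibodies. Libraries were chosen by these labels alone, and the 23 libraries of the series include none numbered 1 of this unstimulated group. Both groups thus carried the genotype label, IL-2 and niacin, so the comparison is of the antibodies only. All cells came from the spleen of C57BL/6 mice and were sorted before culture as CD45+CD3+CD4+CD8- cells. The labels do not say whether libraries of a group came from separate animals or cultures, so the p-values cover only a spread between libraries, which may be technical. The other 18 libraries held cells labelled wild type or knockout, stimulated or not, with and without niacin, and entered the fit to estimate the spread.

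A T cell reads antigen through its receptor and the CD3 chains, and CD28 gives the second signal that lets the cell grow and divide. In culture, antibodies against both stand in for the antigen-presenting cell. A cell that receives them is known to leave its resting programme, take up glucose, amino acids and iron, make lipids and nucleotides, and enter the cell cycle, while IL-2 alone mainly sustains survival. Niacin is a form of vitamin B3 that is used to make NAD, and it is also the ligand of the G protein-coupled receptor Gpr109a, now named Hcar2.

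Counts of Hcar2 (ENSMUSG00000045502, chromosome 5 at 123863570 to 123865499 on GRCm38) did not match the knockout label. The stimulated libraries held 16, 8 and 18 counts and the unstimulated libraries 32 and 28, while the 12 libraries labelled wild type held 1 count in all. In CPM (counts scaled to a common library total, with TMM-normalised library sizes) the levels were 0.657, 0.335 and 0.761 CPM in stimulated cells, against 1.37 and 1.08 CPM in unstimulated cells. The groups did not overlap, but the log2 fold change of -1.06 ± 0.99 (SE) did not pass the threshold of 0.05 (edgeR adjusted p = 0.391). The sources used here do not say which part of the gene was deleted, and both groups are called knockout-labelled throughout. Whether the genotype labels are exchanged was not tested, and an exchange would turn the sign of each knockout minus wild-type difference given below. The cells did match the label CD4+ T cell. Cd4, the coreceptor used in the sort, had 465, 438 and 472 CPM in stimulated cells, against 558 and 504 CPM in unstimulated cells, and Cd3e, a chain of the receptor complex, had 675, 657 and 678 CPM in stimulated cells, against 777 and 815 CPM in unstimulated cells. Cd8b1, a chain of the CD8 coreceptor, stood at 15.2, 16.1 and 15.5 CPM in stimulated cells, against 20.9 and 21.1 CPM in unstimulated cells. Both were slightly lower in stimulated cells and neither passed by edgeR (adjusted p = 0.231 and 0.0672), but Cd3e passed as lower under 5 other settings (log2 fold change -0.33 with DESeq2, adjusted p = 0.00154) and Cd4 under 3 of them (-0.22 with voom, adjusted p = 0.0246). Of 15 genes of CD4+ T cell identity 4 rose (2 without unstimulated library 2 or 3) and 1 fell, beside 24.5% and 25.3% of all genes tested. The one that fell was Ptprc (CD45), at 752, 736 and 611 CPM in stimulated cells, against 1472 and 1300.0 CPM in unstimulated cells, and its call was lost without unstimulated library 2 (edgeR adjusted p = 0.00533, against 0.0519 without it). Cd8a, the other CD8 gene, had 1.03, 5.03 and 3.13 CPM in stimulated cells, against 0.853 and 0.927 CPM in unstimulated cells, and neither CD8 gene passed (edgeR adjusted p = 0.147 and 0.232), though Cd8b1 passed as lower under 3 other settings and Cd8a as higher with no filter on low counts.

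In TMM-normalised levels, about as many genes were higher as lower in stimulated cells. This scaling assumes that most genes do not differ, so the even split is partly set by it. The levels are relative to each library and are not amounts per cell. By edgeR, 4138 of the 16882 genes tested (24.5%) were higher in stimulated cells and 4268 (25.3%) were lower, 49.8% in all, at an adjusted p under 0.05. More than 8-fold differences were found for 656 of the higher and 1142 of the lower genes, and the median log2 fold change over all genes was -0.07. With RLE factors, 3840 genes were higher and 4585 lower. Without unstimulated library 2 the counts were 2794 higher and 2832 lower, with the remaining unstimulated library assumed to vary like the other groups. The 5 libraries held 20604050 to 26177991 counts. Stimulated libraries had fewer genes with a count (17348 to 18877, against 20779 and 20827) and lower TMM factors (0.917 to 0.933, against 1.137 and 1.138). Their share of counts on mitochondrial genes was also lower, 0.374% to 0.562%, against 0.744% and 0.809%. Stimulated library 3 lay farther from libraries 1 and 2 than these lay from each other, with a chi-square per gene of 24.72 and 23.44, against 10.07. In a bulk sample, fewer cells of a type and less RNA per cell cannot be told apart.

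**Figure D1:**
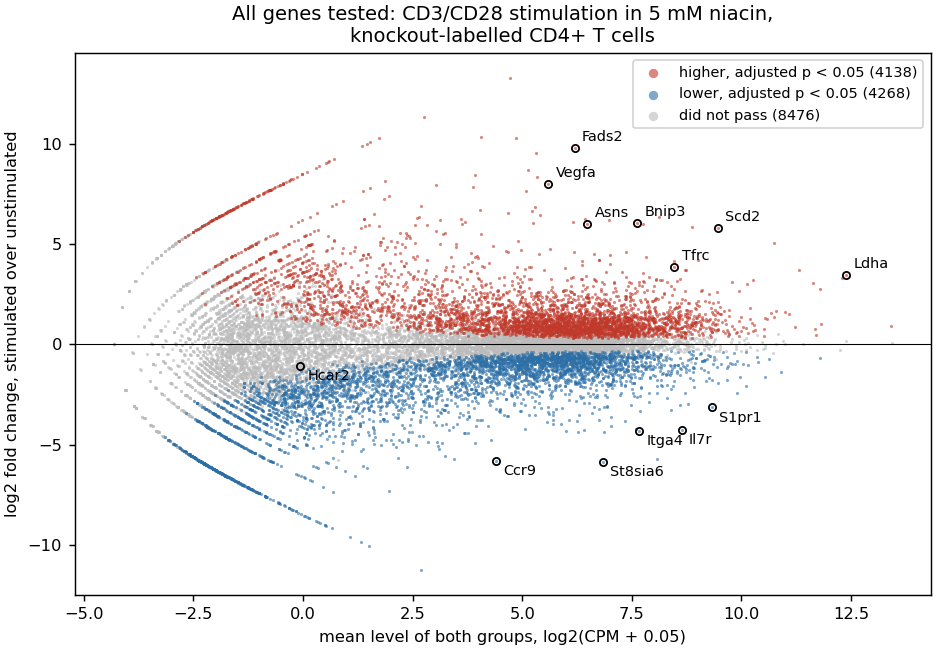
Log2 fold change of stimulated over unstimulated knockout-labelled cells in niacin (y axis) against the mean level of both groups in log2(CPM + 0.05) (x axis), with 1 point a gene. Red points passed as higher (4138), blue points as lower (4268) and grey points did not pass. Open circles mark named genes, with Fads2 near the top at 9.78 ± 0.73 (SE) and St8sia6 near the bottom at -5.85 ± 0.46 (SE).

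Members of 34 gene lists were counted against this background. Among the lists with 8 or more tested members, the highest medians were those of glycolysis, hypoxia targets, cholesterol synthesis and amino acid genes. The lowest was that of markers of natural killer (NK) and gamma delta T cells, followed by homing receptors. The lists and their members were written with earlier results of these data known, so their counts are a description.

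**Figure D2:**
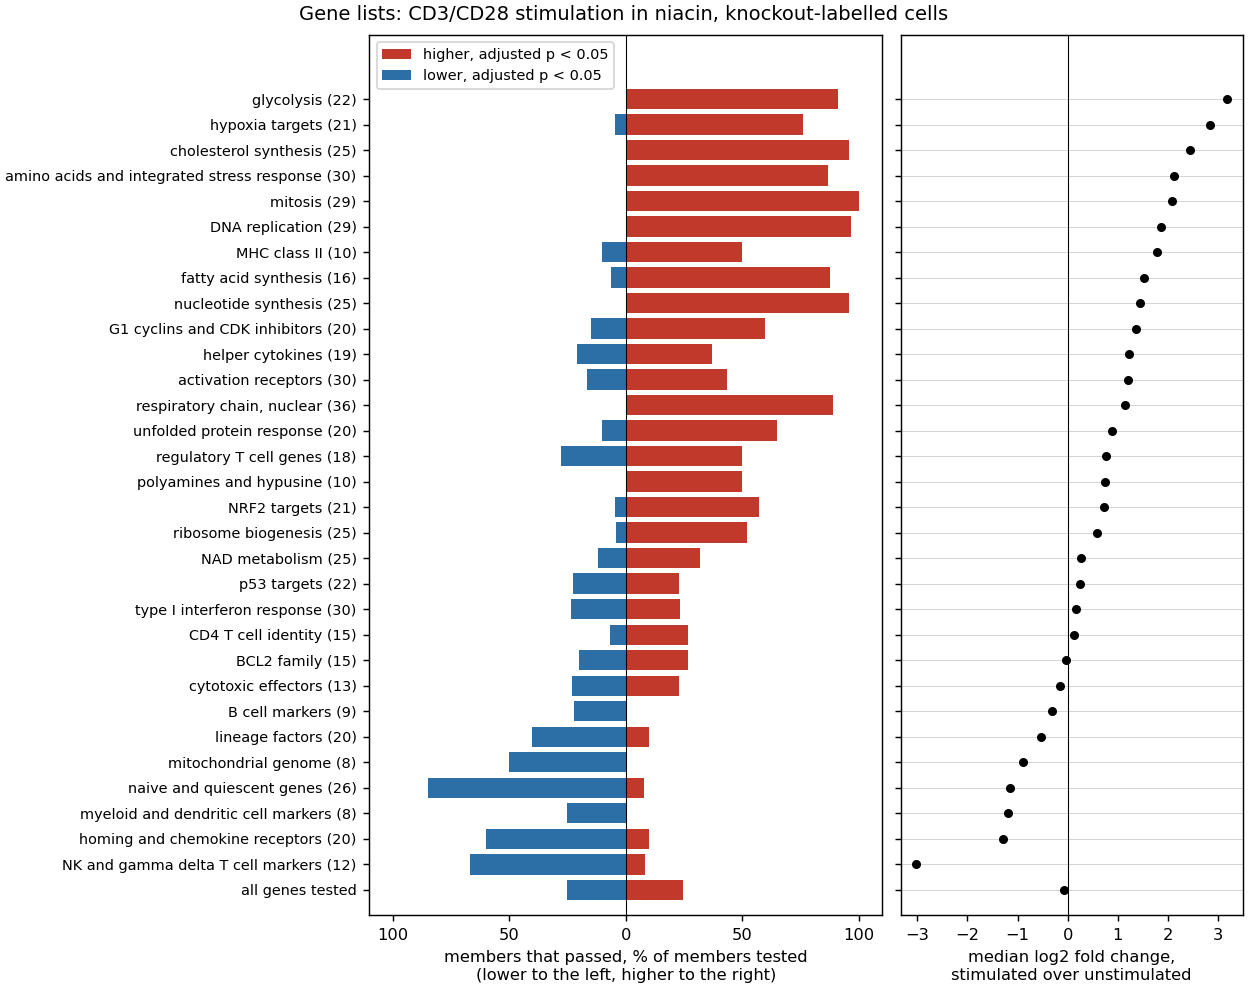
Share of each list's tested members that passed, with higher members to the right and lower members to the left (left panel, %), and the median log2 fold change of the list (right panel), for the 31 lists with 8 or more tested members and for all genes tested. Numbers in brackets are members tested. The mitosis list reaches 100% higher, and the list of naive and quiescent genes extends farthest to the left.

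Receptors and early factors of T cell activation were more often higher than lower after 72 h. Of 30 genes tested, 13 rose and 5 fell, and the median log2 fold change was 1.20. Il2ra, the high-affinity chain of the IL-2 receptor, had 1611, 1768 and 1742 CPM in stimulated cells, against 278 and 268 CPM in unstimulated cells. Tfrc, the transferrin receptor through which cells take up iron, had 618, 713 and 657 CPM in stimulated cells, against 50.5 and 41 CPM in unstimulated cells. The groups were far apart in both, with log2 fold changes of 2.64 ± 0.28 and 3.86 ± 0.52 (SE; edgeR adjusted p = 3.62e-07 and 5.84e-06). Tnfrsf4 (OX40), a costimulatory receptor, had 630.2, 560.3 and 585 CPM in stimulated cells, against 71.1 and 86.6 CPM in unstimulated cells. Tnfrsf8 (CD30), of the same receptor family, was nearly silent without antibodies, at 21.2, 18.8 and 32.4 CPM in stimulated cells, against 0.427 and 0.309 CPM in unstimulated cells. Ctla4, the inhibitory receptor that competes with CD28 for its ligands, was higher by a log2 fold change of 2.45 ± 0.25 (SE). Among the transcription factors, Nr4a1 responds to receptor signalling within hours and Irf4 scales with its strength. Nr4a1 had 30.8, 28.9 and 26.7 CPM in stimulated cells, against 1.24 and 1.54 CPM in unstimulated cells. Irf4 had 45.9, 40.7 and 75.6 CPM in stimulated cells, against 4.86 and 5.48 CPM in unstimulated cells, with stimulated library 3 above the others. Myc, which drives growth, had 677, 671 and 759 CPM in stimulated cells, against 219 and 228 CPM in unstimulated cells, a log2 fold change of 1.65 ± 0.25 (SE; edgeR adjusted p = 2.2e-05).

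The members that fell included a ligand of B cell help, a costimulatory receptor and an inhibitory one. Cd40lg, the ligand by which helper cells act on B cells, had 48.7, 47 and 44.4 CPM in stimulated cells, against 124 and 119 CPM in unstimulated cells. Cd27, a costimulatory receptor of resting cells, had 117, 119.5 and 104 CPM in stimulated cells, against 316 and 259 CPM in unstimulated cells. Pdcd1, which encodes the inhibitory receptor PD-1, had 7.68, 8.29 and 12.9 CPM in stimulated cells, against 20.4 and 28.8 CPM in unstimulated cells. All 3 fell, and no stimulated library reached an unstimulated one, with log2 fold changes of -1.38 ± 0.23, -1.34 ± 0.20 and -1.36 ± 0.30 (SE; edgeR adjusted p = 5.16e-05, 1.63e-05 and 0.000838). Cd28 itself had 32.8, 35.5 and 35.6 CPM in stimulated cells, against 59.2 and 52.4 CPM in unstimulated cells, and its call was lost without unstimulated library 2 (log2 fold change -0.69 ± 0.19 (SE), edgeR adjusted p = 0.00522, against 0.067 without it). Cd44, an adhesion receptor of activated and memory cells, overlapped between the groups at 60.7, 57.6 and 63.2 CPM in stimulated cells, against 51.2 and 72.6 CPM in unstimulated cells. Without unstimulated library 2, 3 members fell in place of 5.

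Cytokine transcripts at 72 h moved in both directions, and many did not pass. Of 25 listed, 19 passed the filter on low counts, of which 7 rose, 4 fell and 8 did neither. Over all genes tested, 24.5% rose and 25.3% fell, so these counts do not set cytokines apart. Lta, which encodes lymphotoxin alpha, had 595, 658 and 728 CPM in stimulated cells, against 115 and 159 CPM in unstimulated cells. Lif, a cytokine of the IL-6 family, had 119, 128 and 128 CPM in stimulated cells, against 12.3 and 13.2 CPM in unstimulated cells. Tnf had 72.9, 74 and 64.5 CPM in stimulated cells, against 25.7 and 33 CPM in unstimulated cells, and the groups did not overlap in any of these 3 (edgeR adjusted p = 1.77e-05, 6.41e-05 and 0.00181). Ebi3, a subunit of IL-27 and IL-35, had 16.8, 19.7 and 16.9 CPM in stimulated cells, against 1.37 and 1.12 CPM in unstimulated cells. Il10 was near the limit of detection, with 76 counts over the stimulated and 2 over the unstimulated libraries, a ratio of 26.1 (95% counting interval 6.98 to 219). Xcl1 and Ccl5, chemokines of memory and cytotoxic lymphocytes, went the other way. Xcl1 had 0.164, 0.209 and 0.423 CPM in stimulated cells, against 3.07 and 8.49 CPM in unstimulated cells. Ccl5 had 18.3, 10.7 and 7.99 CPM in stimulated cells, against 32.6 and 62.8 CPM in unstimulated cells, a log2 fold change of -1.95 ± 0.34 (SE; edgeR adjusted p = 0.000109). Il2 itself was scarce, at 0.411, 0.168 and 0.338 CPM in stimulated cells, against 0.725 and 1.89 CPM in unstimulated cells, and its call (edgeR adjusted p = 0.0378) was lost without any 1 of 4 of the 5 libraries. The same p without each of these was 0.0508 to 0.356. Ifng, the main cytokine of type 1 helper cells, overlapped at 2.38, 0.670 and 3.81 CPM in stimulated cells, against 3.76 and 8.03 CPM in unstimulated cells, and passed as lower only with no filter on low counts (edgeR adjusted p = 0.000545). Ebi3 and Ifng share 23.1% and 25.9% of their exon bases with other genes. The counts of this list were 4 higher without unstimulated library 2, and 2 lower without unstimulated library 3 or stimulated library 1 or 3.

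**Figure D3:**
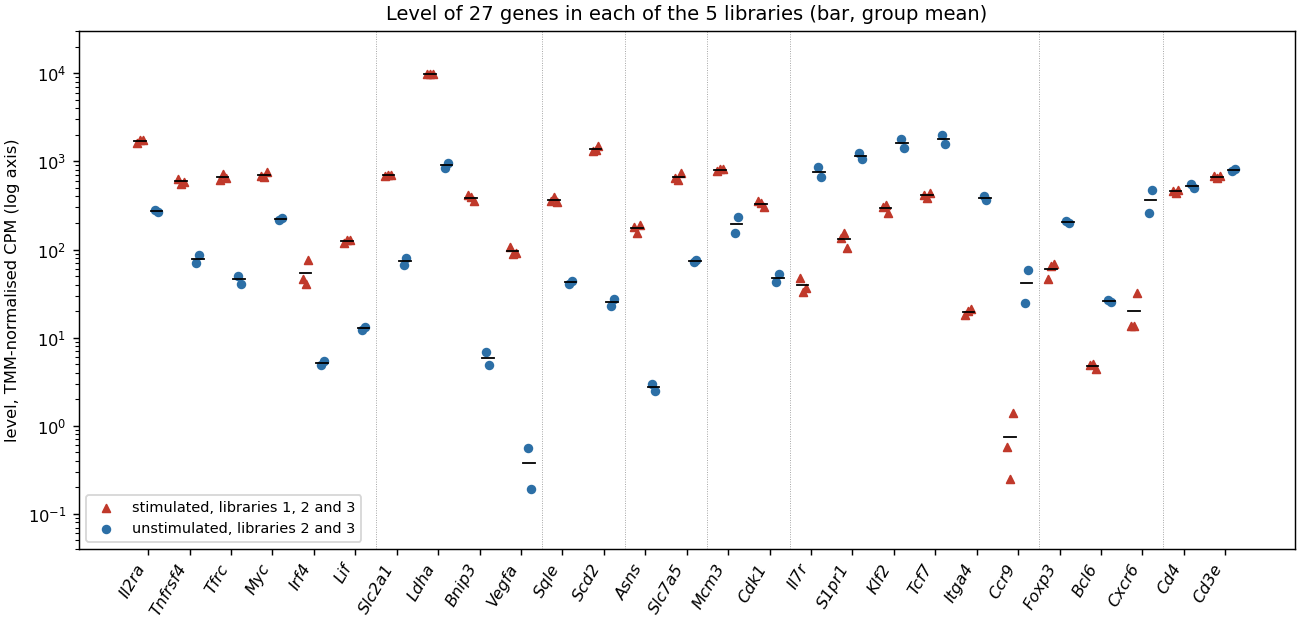
Level of 27 genes in each of the 5 libraries, in TMM-normalised CPM on a log axis, with stimulated libraries as red triangles on the left and unstimulated libraries as blue circles on the right of each gene. Black bars are group means. Dotted lines separate activation genes, glycolysis and hypoxia genes, lipid genes, amino acid genes, cell cycle genes, resting and homing genes, lineage genes and the identity genes Cd4 and Cd3e, which lie close together in both groups.

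Glycolysis, which turns glucose into lactate in the cytosol, was the list with the highest median. Of 22 genes tested, 20 rose and none fell, with a median log2 fold change of 3.18. The listed genes together took 49360, 48290 and 48373 CPM in stimulated cells, against 5128 and 5583 CPM in unstimulated cells. The rise ran from uptake to export. Slc2a1 (GLUT1), the glucose transporter, had 689, 696 and 705 CPM in stimulated cells, against 67.1 and 80.0 CPM in unstimulated cells. Hk2, the inducible hexokinase, had 79.4, 82.3 and 61.7 CPM in stimulated cells, against 1.49 and 0.734 CPM in unstimulated cells. Pfkp, a subunit of phosphofructokinase, had 1616, 1543 and 1565 CPM in stimulated cells, against 175 and 187 CPM in unstimulated cells. In each of these the stimulated libraries lay within a narrow band far above the unstimulated ones, with log2 fold changes of 3.24 ± 0.22, 6.07 ± 0.69 and 3.12 ± 0.18 (SE; edgeR adjusted p = 8.1e-10, 7.35e-07 and 5.92e-11). Downstream, Aldoa, the main aldolase of these steps, had 5718, 5609 and 5668 CPM in stimulated cells, against 661 and 696 CPM in unstimulated cells. Ldha, which makes lactate from pyruvate, had 9846, 9832 and 9890.0 CPM in stimulated cells, against 849 and 968 CPM in unstimulated cells. Slc16a3 (MCT4), which exports lactate, had 942, 911 and 925 CPM in stimulated cells, against 13.5 and 18.5 CPM in unstimulated cells, a log2 fold change of 5.85 ± 0.56 (SE). The brain-type aldolase Aldoc, which had 284, 249 and 212 CPM in stimulated cells, against 3.46 and 3.2 CPM in unstimulated cells, shared the smallest adjusted p of all genes with Selenbp1 (edgeR adjusted p = 1.54e-12). Several of these enzymes, such as Aldoa, Ldha and Gapdh, have near-identical processed copies in the genome, so their counts depend on how shared reads were treated.

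Hypoxia targets are genes that the oxygen-sensing factor HIF-1 switches on, among them much of glycolysis, and they were higher beyond the glycolytic enzymes too. Of 21 genes, 16 rose and 1 fell, with a median log2 fold change of 2.83. Vegfa, the growth factor for blood vessels, was close to silent in unstimulated cells, at 107, 90.1 and 90.5 CPM in stimulated cells, against 0.555 and 0.193 CPM in unstimulated cells. Bnip3, which marks mitochondria for removal, had 415, 393 and 356 CPM in stimulated cells, against 6.96 and 4.86 CPM in unstimulated cells. Egln3, one of the prolyl hydroxylases that mark HIF for decay, had 584, 538 and 536 CPM in stimulated cells, against 5.93 and 7.37 CPM in unstimulated cells. P4ha2, a collagen prolyl hydroxylase, had 146, 149 and 130.1 CPM in stimulated cells, against 1.54 and 2.55 CPM in unstimulated cells. Their log2 fold changes were 8.01 ± 0.59, 6.04 ± 0.27, 6.37 ± 0.40 and 6.11 ± 0.57 (SE; edgeR adjusted p = 2.84e-09, 2.68e-12, 2.82e-10 and 6.19e-08), and no unstimulated library came near a stimulated one. Ndrg1 and Ankrd37 were among the 6 higher genes with the smallest p, at 441, 451 and 401 CPM in stimulated cells, against 20.5 and 21.6 CPM in unstimulated cells for the first and 99.8, 98.6 and 86 CPM in stimulated cells, against 4.01 and 3.09 CPM in unstimulated cells for the other. Bnip3 and Ankrd37 share 22.3% and 26.4% of their exon bases with other genes. Adm, the vasodilator peptide adrenomedullin, held 262 counts over the stimulated and 1 over the unstimulated libraries, a ratio of 180 (95% counting interval 32.0 to 7131). Car9, a textbook HIF target of tumour cells, did not pass, at 1.48, 0.796 and 1.31 CPM in stimulated cells, against 1.02 and 0.270 CPM in unstimulated cells, although it passed without unstimulated library 2 (log2 fold change 2.12, edgeR adjusted p = 0.0349). Rora, which encodes a nuclear receptor of innate-like and type 17 cells, was the member that fell, at 12, 6.58 and 6.68 CPM in stimulated cells, against 63.3 and 91.2 CPM in unstimulated cells.

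HIF binds the core letters ACGTG, and the promoters of the 2 hypoxia targets with the largest fold changes that held it are printed here to show where it lies. Each is the 250 bases before a RefSeq start site (GRCm38.p6), with ACGTG in capitals. The Egln3 window is chr12:54203875-54204124 on the minus strand and has the motif 229 bases before the start. The P4ha2 window is chr11:54100674-54100923 on the plus strand, with the motif 78 bases before the start. That start lies 829 bases from the 5′ end of the gene.
Egln3: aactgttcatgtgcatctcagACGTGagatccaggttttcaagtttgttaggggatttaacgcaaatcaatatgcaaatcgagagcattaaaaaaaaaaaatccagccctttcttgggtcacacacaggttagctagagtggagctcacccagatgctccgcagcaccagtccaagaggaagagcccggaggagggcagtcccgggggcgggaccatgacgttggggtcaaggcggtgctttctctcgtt
P4ha2: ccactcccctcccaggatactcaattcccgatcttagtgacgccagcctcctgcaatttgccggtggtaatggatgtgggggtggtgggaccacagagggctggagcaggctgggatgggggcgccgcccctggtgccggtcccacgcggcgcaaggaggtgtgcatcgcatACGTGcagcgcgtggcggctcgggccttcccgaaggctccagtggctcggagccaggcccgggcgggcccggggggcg
Searched on both strands, ACGTG was in 9 of the 17 hypoxia targets with a promoter in the table (52.9%) and in 17.4% of the 20428 genes with one. Neither printed match lay inside the E-box CACGTG, which other factors share. The targets with a match include Bnip3, Ankrd37 and Egln1, which rose, and also Car9, which did not pass, and Rora, which fell.

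Cholesterol synthesis rose along its whole length. Of 25 genes, 24 rose and none fell, with a median log2 fold change of 2.44. Sqle, squalene epoxidase, had 353, 391 and 344 CPM in stimulated cells, against 40.8 and 43.7 CPM in unstimulated cells. Lss, which closes the sterol rings, had 289.7, 268 and 341 CPM in stimulated cells, against 27 and 30.8 CPM in unstimulated cells. Their log2 fold changes were 3.10 ± 0.18 and 3.37 ± 0.24 (SE; edgeR adjusted p = 1.12e-10 and 1.23e-09), with the groups apart in both. Pmvk, a kinase of the mevalonate steps, had 94.9, 90.5 and 87.2 CPM in stimulated cells, against 9.0 and 10.2 CPM in unstimulated cells. Srebf2, the factor that switches on this pathway, differed less, by a log2 fold change of 0.83 ± 0.20 (SE; edgeR adjusted p = 0.00232).

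Promoters of sterol genes often carry the CCAAT box bound by NF-Y, which works with the SREBP factors, and the 2 members with the largest fold changes that held it are printed below in the same way. Capitals mark CCAAT or its complement. The Lss window is chr10:76531355-76531604 on the plus strand, with the box on the other strand 62 bases before the start. That start lies 17 bases inside the gene, which the window therefore enters. The Pmvk window is chr3:89454291-89454540 on the plus strand, with the box 136 bases before the start.
Lss: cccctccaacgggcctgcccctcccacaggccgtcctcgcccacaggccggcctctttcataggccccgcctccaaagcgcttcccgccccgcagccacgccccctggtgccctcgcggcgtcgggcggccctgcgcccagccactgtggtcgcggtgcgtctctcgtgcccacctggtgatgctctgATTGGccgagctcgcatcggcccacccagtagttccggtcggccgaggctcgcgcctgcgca
Pmvk: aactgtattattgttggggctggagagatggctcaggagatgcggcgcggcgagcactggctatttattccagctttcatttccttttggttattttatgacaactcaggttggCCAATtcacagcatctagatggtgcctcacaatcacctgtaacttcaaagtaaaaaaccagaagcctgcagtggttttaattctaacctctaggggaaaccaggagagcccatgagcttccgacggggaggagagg
CCAAT was found on either strand in 15 of the 17 cholesterol genes with a promoter in the table (88.2%), and in 35.2% of the 20428 genes. A match shows only that the letters are in this window.

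Fatty acid synthesis and desaturation held one of the largest differences of any named gene. Of 16 genes, 14 rose and 1 fell, with a median log2 fold change of 1.52. Scd1, a stearoyl-CoA desaturase (ENSMUSG00000037071, chromosome 19 at 44394451 to 44407709), had 68.6, 58.6 and 30.7 CPM in stimulated cells, against 0 and 0 CPM in unstimulated cells. With no count in either unstimulated library, it was at least 868-fold higher in stimulated cells, against a limit of 3 counts over the unstimulated group. Scd2, the related desaturase, had 1325, 1344 and 1479.6 CPM in stimulated cells, against 23 and 27.3 CPM in unstimulated cells. Fads2, the first desaturase of polyunsaturated fatty acids, had 138, 145 and 155 CPM in stimulated cells, against 0 and 0.309 CPM in unstimulated cells, a log2 fold change of 9.78 ± 0.73 (SE; edgeR adjusted p = 2.84e-09). The enzymes that build the chain moved less. Fasn, fatty acid synthase, had 855, 944 and 1012 CPM in stimulated cells, against 204 and 219 CPM in unstimulated cells, and Acaca, which makes its substrate malonyl-CoA, had 17.5, 22.7 and 22.7 CPM in stimulated cells, against 8.15 and 7.88 CPM in unstimulated cells. Acss2, which makes acetyl-CoA from acetate, was the member that fell, at 57.8, 64.2 and 54.3 CPM in stimulated cells, against 128 and 93 CPM in unstimulated cells, and its call was lost without unstimulated library 2 (log2 fold change -0.91 ± 0.23 (SE), edgeR adjusted p = 0.00318, against 0.0864 without it).

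Amino acid uptake and synthesis genes, many of them targets of the stress-responsive factor ATF4, were higher as a group. Of 30 genes, 26 rose and none fell, with a median log2 fold change of 2.13. Atf4 had 354, 381 and 381 CPM in stimulated cells, against 82.1 and 90.8 CPM in unstimulated cells. Asns, asparagine synthetase, had 181, 155 and 192 CPM in stimulated cells, against 2.94 and 2.51 CPM in unstimulated cells. Slc7a5 (LAT1), the transporter of leucine and other large amino acids, had 640.1, 611 and 737 CPM in stimulated cells, against 71.9 and 76.7 CPM in unstimulated cells. Both targets were separated between the groups by more than Atf4, with log2 fold changes of 6.01 ± 0.51 and 3.16 ± 0.32 beside 2.11 ± 0.16 (SE; edgeR adjusted p = 1.83e-08, 2.01e-07 and 2.84e-09), though these differences between genes were not tested. Chac1, which breaks down glutathione and is a sensitive ATF4 target, had 10.3, 7.41 and 16.1 CPM in stimulated cells, against 0.512 and 0.154 CPM in unstimulated cells. Ddit3 (CHOP), a factor of prolonged stress, had 42.2, 37.7 and 34.5 CPM in stimulated cells, against 17.1 and 19 CPM in unstimulated cells, a log2 fold change of 1.08 ± 0.18 (SE). Vldlr, a lipoprotein receptor on this list, held 2378 counts over the stimulated and 1 over the unstimulated libraries, a ratio of 1632 (95% counting interval 293 to 64504). Cth, which makes cysteine, had no count in unstimulated cells and was at least 19.0-fold higher.

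Nucleotide synthesis and one-carbon genes were higher in a similar proportion, with smaller folds. Of 25 genes, 24 rose and none fell, with a median log2 fold change of 1.44. Cad, which starts pyrimidine synthesis, had 182, 209 and 301 CPM in stimulated cells, against 101 and 108 CPM in unstimulated cells, with stimulated library 3 above the others. Shmt1, which passes carbon units from serine, had 98.9, 109.6 and 105 CPM in stimulated cells, against 16.7 and 16.7 CPM in unstimulated cells, and Mthfd1l, its mitochondrial partner in formate supply, had 229, 236 and 271 CPM in stimulated cells, against 51.2 and 53.4 CPM in unstimulated cells. Tk1, thymidine kinase of dividing cells, had 172, 168 and 182 CPM in stimulated cells, against 26.2 and 41.8 CPM in unstimulated cells. These last 3 had log2 fold changes of 2.65 ± 0.36, 2.23 ± 0.14 and 2.36 ± 0.40 (SE; edgeR adjusted p = 7.06e-06, 3.79e-10 and 7.53e-05).

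Genes of DNA replication and mitosis were higher in almost every case. Of 29 replication genes, 28 rose and none fell (median log2 fold change 1.87), and of 29 mitosis genes all 29 rose (median 2.07). Mcm3, a subunit of the replicative helicase, had 784, 812 and 815 CPM in stimulated cells, against 155 and 232 CPM in unstimulated cells. Mcm10, which helps start the helicase, had 129, 119.5 and 124 CPM in stimulated cells, against 17.7 and 25.3 CPM in unstimulated cells. Cdk1, the mitotic kinase, had 351, 339.9 and 303 CPM in stimulated cells, against 43.2 and 52.6 CPM in unstimulated cells. Aurkb, the kinase of chromosome segregation, had 384, 372 and 403 CPM in stimulated cells, against 39.5 and 47.3 CPM in unstimulated cells. The groups did not overlap in these genes, with log2 fold changes of 2.05 ± 0.32, 2.53 ± 0.45, 2.79 ± 0.44 and 3.15 ± 0.41 (SE; edgeR adjusted p = 2.89e-05, 0.000127, 3.9e-05 and 4e-06). Unstimulated cells were not free of these transcripts, and unstimulated library 3 was the higher of the pair in all 4. Mki67, the usual marker of cycling cells, had 243, 211 and 214 CPM in stimulated cells, against 92.3 and 111 CPM in unstimulated cells, and its call (edgeR adjusted p = 0.0368) was lost without any 1 of the 5 libraries (0.0532 to 0.194).

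The switch into the cell cycle showed in its cyclins and its brakes. Of 20 genes, 12 rose and 3 fell. Ccne1, the cyclin of the G1 to S step, had 140.4, 159 and 155 CPM in stimulated cells, against 21.8 and 32.8 CPM in unstimulated cells, and Cdk6, a kinase of early G1, had 252, 227 and 234 CPM in stimulated cells, against 41 and 47.5 CPM in unstimulated cells. Cdkn1b (p27), the inhibitor that holds resting T cells out of cycle, had 45.8, 45.4 and 32.1 CPM in stimulated cells, against 130.2 and 109 CPM in unstimulated cells, and Rbl2 (p130), the pocket protein of quiescent cells, had 53, 56.6 and 53.5 CPM in stimulated cells, against 169 and 181 CPM in unstimulated cells. Rbl2 shares 21% of its exon bases with another gene. Against these, the inhibitor Cdkn1a (p21) was higher, at 181, 175 and 219 CPM in stimulated cells, against 7.98 and 8.57 CPM in unstimulated cells. The log2 fold changes were 2.47 ± 0.31 for Ccne1, 2.43 ± 0.35 for Cdk6, -1.54 ± 0.28 for Cdkn1b, -1.69 ± 0.17 for Rbl2 and 4.53 ± 0.61 for Cdkn1a (SE; edgeR adjusted p = 2.23e-06, 1.22e-05, 0.000142, 1.8e-07 and 6.34e-06). Ccnd2, a D cyclin, overlapped between the groups at 546, 582 and 602 CPM in stimulated cells, against 426 and 576 CPM in unstimulated cells.

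Nuclear genes of the respiratory chain were mostly higher, while the mitochondrial genes that could be tested were lower or did not pass. Of 36 nuclear genes, 32 rose and none fell, with a median log2 fold change of 1.14. Atp5b, the catalytic subunit of ATP synthase, had 2943, 2978 and 3186 CPM in stimulated cells, against 960.0 and 1059 CPM in unstimulated cells, and Uqcrfs1, the iron-sulfur subunit of complex III, had 318, 317 and 313 CPM in stimulated cells, against 101 and 103 CPM in unstimulated cells. Of the 13 genes on the mitochondrial genome, 8 were tested, of which none rose and 4 fell, with a median of -0.90. Among these, mt-Nd5 and mt-Nd4, subunits of complex I, had 199, 184 and 135 CPM in stimulated cells, against 514 and 472 CPM in unstimulated cells for the first and 93.1, 81.4 and 67.8 CPM in stimulated cells, against 204 and 200.3 CPM in unstimulated cells for the other. Their log2 fold changes were -1.51 ± 0.43 and -1.33 ± 0.33 (SE; edgeR adjusted p = 0.00703 and 0.00277), beside 1.59 ± 0.16 for Atp5b and 1.63 ± 0.15 for Uqcrfs1 (2.15e-07 and 4.48e-08). Stimulated library 3 was lowest in both mitochondrial genes, as it was in its share of mitochondrial counts. mt-Nd1 did not pass, at 467, 427 and 348 CPM in stimulated cells, against 523 and 479.8 CPM in unstimulated cells. mt-Nd3, at under 1 CPM, leaned upwards (log2 fold change 0.62 ± 0.75 (SE), edgeR adjusted p = 0.508). The low-count filter removed mt-Nd4l, mt-Co2, mt-Co3, mt-Atp6 and mt-Atp8. Of the 13 genes, 3 had no count in stimulated libraries and 3 none in unstimulated ones. The cause was not tested, so these counts cover only a part of the mitochondrial transcripts. Without unstimulated library 2 or stimulated library 3, 2 mitochondrial genes fell in place of 4.

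Ribosome biogenesis, a target of Myc, was raised in part. Of 25 genes, 13 rose and 1 fell, with a median log2 fold change of 0.58. Npm1, a shuttle of the nucleolus, had 750.1, 745 and 553 CPM in stimulated cells, against 222 and 213 CPM in unstimulated cells, Fbl, the methylase of ribosomal RNA, had 133, 149 and 135 CPM in stimulated cells, against 64.8 and 69.8 CPM in unstimulated cells, and Noc4l had 201, 215 and 223 CPM in stimulated cells, against 85 and 89 CPM in unstimulated cells. These 3 had log2 fold changes of 1.65 ± 0.34, 1.04 ± 0.22 and 1.29 ± 0.20 (SE; edgeR adjusted p = 0.000559, 0.000638 and 2.86e-05). Ncl, nucleolin, had 652, 685 and 637 CPM in stimulated cells, against 434 and 451 CPM in unstimulated cells, and its call (edgeR adjusted p = 0.0347) was lost without any 1 of the 5 libraries (0.0518 to 0.158). Wdr12 was the member that fell, at 72.8, 60.2 and 54.4 CPM in stimulated cells, against 121 and 94.1 CPM in unstimulated cells, and not without unstimulated library 2 or stimulated library 3 (edgeR adjusted p = 0.0183, against 0.182 and 0.0645). Without unstimulated library 2, 8 members rose in place of 13.

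Genes of the naive and quiescent state were lower in stimulated cells. Of 26 genes, 22 fell and 2 rose, with a median log2 fold change of -1.15. Il7r, the receptor for the survival cytokine IL-7, had 47.8, 32.8 and 36.9 CPM in stimulated cells, against 861 and 657 CPM in unstimulated cells. S1pr1, which lets T cells leave lymphoid organs, had 136, 153 and 103 CPM in stimulated cells, against 1250.2 and 1052 CPM in unstimulated cells. Klf2, the factor that switches on S1pr1, had 308, 317 and 259 CPM in stimulated cells, against 1800.4 and 1430.5 CPM in unstimulated cells. Tcf7 (TCF1), a factor of naive and stem-like T cells, had 414, 388 and 442 CPM in stimulated cells, against 1976 and 1574 CPM in unstimulated cells. Every stimulated library lay far below both unstimulated ones in these 4, with log2 fold changes of -4.28 ± 0.34, -3.14 ± 0.23, -2.45 ± 0.45 and -2.10 ± 0.17 (SE; edgeR adjusted p = 8.3e-09, 2.79e-09, 0.000176 and 1.06e-08). Btg2, an antiproliferative factor of quiescent cells, had 58.1, 53.6 and 53.7 CPM in stimulated cells, against 370.4 and 307 CPM in unstimulated cells. Ccr7, the homing receptor for lymph nodes, differed less, at 539, 491 and 439 CPM in stimulated cells, against 909 and 746 CPM in unstimulated cells. The members that rose were Igfbp4 and Id3, at 502, 602 and 509 CPM in stimulated cells, against 180.2 and 259 CPM in unstimulated cells for the first and 68.2, 84.6 and 70.2 CPM in stimulated cells, against 41.3 and 36.9 CPM in unstimulated cells for the other. The call of Igfbp4 (edgeR adjusted p = 0.00476) was lost without unstimulated library 2 (0.081), and that of Id3 (0.0119) without unstimulated library 2 or 3 (0.0521 and 0.0896).

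Homing receptors and integrins fell more than they rose. Of 20 genes, 12 fell and 2 rose, with a median log2 fold change of -1.29. Itga4, the integrin chain for entry into gut and inflamed tissue, had 17.9, 19.9 and 21.1 CPM in stimulated cells, against 407 and 367 CPM in unstimulated cells. Ccr9, the receptor for the gut chemokine CCL25, had 0.575, 0.251 and 1.4 CPM in stimulated cells, against 25 and 58.1 CPM in unstimulated cells. Cxcr6, a receptor of tissue-resident and effector cells, had 13.7, 13.7 and 32.3 CPM in stimulated cells, against 257 and 479 CPM in unstimulated cells. Unstimulated library 3 was well above library 2 in Ccr9 and Cxcr6, and both lay above every stimulated library. For Itga4, Ccr9 and Cxcr6 the log2 fold changes were -4.30 ± 0.25, -5.80 ± 0.77 and -4.21 ± 0.48 (SE; edgeR adjusted p = 8.31e-11, 4.99e-06 and 7.6e-07). Ccr9 shares 21.5% of its exon bases with another gene. Ccr4 and Ccr8, chemokine receptors of skin-homing, type 2 and regulatory cells, were the 2 that rose, at 40.9, 40.6 and 50.0 CPM in stimulated cells, against 9.64 and 10.7 CPM in unstimulated cells for Ccr4 and 12.6, 12.5 and 17.5 CPM in stimulated cells, against 3.2 and 4.56 CPM in unstimulated cells for Ccr8.

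Lineage factors of helper cells fell more often than they rose. Of 20 genes, 8 fell and 2 rose, beside 25.3% and 24.5% of all genes, with a median log2 fold change of -0.54. Bcl6, the factor of follicular helper cells, had 4.85, 5.07 and 4.44 CPM in stimulated cells, against 26.9 and 25.7 CPM in unstimulated cells. It fell, by a log2 fold change of -2.46 ± 0.30 (SE; edgeR adjusted p = 2.14e-06), and the groups did not overlap. Gata3, of type 2 cells, had 97.4, 94.8 and 106 CPM in stimulated cells, against 126 and 145 CPM in unstimulated cells, and Tbx21 (T-bet), of type 1 cells, had 50.1, 35.2 and 66.7 CPM in stimulated cells, against 55 and 102 CPM in unstimulated cells. Neither passed (edgeR adjusted p = 0.221 and 0.313), but Gata3 passed as lower under 4 other settings (voom adjusted p = 0.00484) and Tbx21 under 2 (0.0439). Eomes, the T-box factor of cytotoxic and memory cells, was higher, at 77.8, 91.6 and 82.4 CPM in stimulated cells, against 5.89 and 6.83 CPM in unstimulated cells. Runx3, its partner in cytotoxic cells, had 184, 175 and 202 CPM in stimulated cells, against 80.2 and 90.7 CPM in unstimulated cells, and its call was lost without unstimulated library 2 (edgeR adjusted p = 0.00767, against 0.0734 without it).

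Genes of regulatory T cells moved in both directions. Foxp3, the defining factor, had 46.8, 65.8 and 67.7 CPM in stimulated cells, against 211 and 202 CPM in unstimulated cells, and Ikzf2 (Helios), a factor of thymus-derived regulatory cells, had 9.2, 8.75 and 13.1 CPM in stimulated cells, against 41.7 and 41.4 CPM in unstimulated cells. Nrp1, a surface marker of the same cells, had 13.1, 8.34 and 14.1 CPM in stimulated cells, against 92.3 and 124 CPM in unstimulated cells. The stimulated libraries lay below both unstimulated ones in all 3, with log2 fold changes of -1.78 ± 0.16, -2.00 ± 0.30 and -3.19 ± 0.35 (SE; edgeR adjusted p = 4.17e-08, 2.06e-05 and 4.19e-07). Of 18 tested genes, 9 rose and 5 fell, beside 24.5% and 25.3% of all genes. Il2ra and Ctla4, given above, are among those that rose, as was Lrrc32 (GARP), which presents TGF-beta on the surface, at 359, 393 and 346 CPM in stimulated cells, against 157 and 138 CPM in unstimulated cells. Ikzf4 (Eos) did not pass, at 42.6, 50.2 and 52.2 CPM in stimulated cells, against 35.8 and 37.2 CPM in unstimulated cells, but passed as higher with the replicate block (log2 fold change 0.44, edgeR adjusted p = 0.0327) and under 2 other settings. Foxp3 shares 21.5% of its exon bases with another gene.

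Of 13 tested cytotoxic effectors, 3 rose and 3 fell, near the 24.5% and 25.3% of all genes. Gzmb, the protease granzyme B, had 475, 399 and 479 CPM in stimulated cells, against 62.9 and 57.7 CPM in unstimulated cells. Prf1, perforin, which lets granzymes into the target, had 8.21, 8.0 and 6.98 CPM in stimulated cells, against 16 and 15.9 CPM in unstimulated cells, and Ctsw, a cathepsin of cytotoxic cells, had 53.6, 48.2 and 62.7 CPM in stimulated cells, against 115 and 197 CPM in unstimulated cells. Gzmb was thus higher while Prf1 and Ctsw were lower, with log2 fold changes of 2.90 ± 0.63, -1.04 ± 0.25 and -1.51 ± 0.31 (SE; edgeR adjusted p = 0.00079, 0.00211 and 0.00047). Gzma overlapped between the groups at 3.08, 3.06 and 4.27 CPM in stimulated cells, against 2.86 and 7.8 CPM in unstimulated cells, and passed as lower only without unstimulated library 2 (edgeR adjusted p = 0.0456).

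Most markers of NK and gamma delta T cells were lower in stimulated cells. Of 12 tested, 8 fell and Eomes alone rose, and without Eomes the list summed to 17.1, 20.4 and 23.7 CPM in stimulated cells, against 101 and 140 CPM in unstimulated cells. Trdc, the constant region of the delta chain, had 5.75, 6.12 and 7.87 CPM in stimulated cells, against 23.6 and 22 CPM in unstimulated cells. Klrd1 (CD94), a receptor subunit of NK cells, had 2.18, 1.55 and 2.28 CPM in stimulated cells, against 26.8 and 19.5 CPM in unstimulated cells. Both fell, by log2 fold changes of -1.79 ± 0.29 and -3.53 ± 0.64 (SE; edgeR adjusted p = 3.91e-05 and 0.000139). Klrb1c (NK1.1), a defining NK marker, held 3 counts over the stimulated and 223 over the unstimulated libraries, a ratio of unstimulated over stimulated of 108 (95% counting interval 36.6 to 529), and Klra8 was not tested. The part of these cells in the fall of Cxcr6, Xcl1, Ccl5 and Ctsw was not tested. Lists of other cell types were at low levels, and their counts stand beside 24.5% higher and 25.3% lower over all genes tested. B cell markers summed to 8.99, 4.57 and 4.78 CPM in stimulated cells, against 11.8 and 15.1 CPM in unstimulated cells, with 2 of 9 tested lower and none higher. Myeloid and dendritic cell markers summed to 3.53, 3.94 and 1.78 CPM in stimulated cells, against 6.61 and 14.2 CPM in unstimulated cells. Lyz2 alone took 6.60 CPM of that sum in unstimulated library 3, and 0 CPM in unstimulated library 2. Of these markers 2 of 8 tested were lower and none higher, and 1 was lower without unstimulated library 3 or any 1 stimulated library. Erythroid and platelet markers summed to under 3 CPM in each library, with 2 of 5 tested higher and 1 lower, the lower one being lost without unstimulated library 2 or stimulated library 1.

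MHC class II genes, which present peptides to CD4+ cells and are mostly silent in mouse T cells, were not uniform. Of 10 genes, 5 rose and 1 fell. H2-Ab1, a beta chain, had 190.4, 162 and 158 CPM in stimulated cells, against 1.54 and 2.9 CPM in unstimulated cells, a log2 fold change of 6.25 ± 0.84 (SE; edgeR adjusted p = 6.16e-06). Its alpha partner H2-Aa overlapped between the groups at 3.61, 1.21 and 1.01 CPM in stimulated cells, against 1.62 and 2.36 CPM in unstimulated cells. Cd74, the invariant chain, had 34.7, 16.2 and 17.3 CPM in stimulated cells, against 7.94 and 10.9 CPM in unstimulated cells and did not pass (edgeR adjusted p = 0.158), but passed as higher under 3 other settings (voom adjusted p = 0.0271). H2-Ob, a subunit of the modulator H2-O, fell, at 7.02, 7.83 and 6.56 CPM in stimulated cells, against 117 and 75.9 CPM in unstimulated cells. The B cell, myeloid and dendritic markers, which mark the professional presenting cells, are given above. The part of such cells in the level of class II genes was not tested.

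Interferon-stimulated genes passed in either direction about as often as all genes did. Of 30 tested, 7 rose and 7 fell, near the 24.5% and 25.3% of all genes, with a median log2 fold change of 0.16. Isg15, an interferon-induced ubiquitin-like protein, had 37.7, 25.2 and 17 CPM in stimulated cells, against 4.31 and 6.91 CPM in unstimulated cells, and Dhx58 (LGP2), a sensor of viral RNA, had 79.9, 59.2 and 62.9 CPM in stimulated cells, against 17.1 and 21.4 CPM in unstimulated cells. Irf9, a subunit of the factor that switches these genes on, had 108, 94.2 and 83 CPM in stimulated cells, against 228 and 209.7 CPM in unstimulated cells. Isg15 and Dhx58 rose and Irf9 fell, with log2 fold changes of 2.24 ± 0.42, 1.81 ± 0.19 and -1.20 ± 0.16 (SE; edgeR adjusted p = 0.000211, 2.28e-07 and 6.86e-06). Stimulated library 3 was the lowest of its group in the summed list, at 1263 CPM, against 1769 and 1547 CPM in stimulated libraries 1 and 2 and 1915 and 1959 CPM in the unstimulated ones. Irf7, which amplifies the response, had 88.8, 63.6 and 37.2 CPM in stimulated cells, against 90.3 and 114 CPM in unstimulated cells, and its call (edgeR adjusted p = 0.039) was lost without stimulated library 2 or 3 or unstimulated library 2 or 3 (0.0585 to 0.249). Without unstimulated library 2, 4 genes rose and 4 fell.

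Niacin enters NAD synthesis through Naprt and nicotinamide through Nampt, and both routes then pass through the Nmnat enzymes. Naprt was barely detected and overlapped, at 1.52, 0.712 and 2.33 CPM in stimulated cells, against 1.62 and 1.51 CPM in unstimulated cells. Nampt, the rate-limiting enzyme of NAD salvage from nicotinamide, had 215, 201 and 166 CPM in stimulated cells, against 61.4 and 59.2 CPM in unstimulated cells, and Nmnat1, which makes NAD in the nucleus, had 14.7, 14.8 and 20.5 CPM in stimulated cells, against 4.22 and 4.32 CPM in unstimulated cells. Both rose, by log2 fold changes of 1.69 ± 0.31 and 1.96 ± 0.30 (SE; edgeR adjusted p = 0.000158 and 2.09e-05). Qprt, of NAD synthesis from tryptophan, had 6.24, 6.2 and 5.71 CPM in stimulated cells, against 23.3 and 21.4 CPM in unstimulated cells, a log2 fold change of -1.89 ± 0.24 (SE; edgeR adjusted p = 3.66e-06). Of the 25 NAD genes tested, 8 rose and 3 fell, beside 24.5% and 25.3% of all genes. Without unstimulated library 2, 5 NAD genes rose and 1 fell. Of the receptors for hydroxycarboxylic and short-chain fatty acids, Hcar1 held 11 counts, all in stimulated library 3, and Ffar2 had 0.164, 0.796 and 0.254 CPM in stimulated cells, against 0.128 and 0.463 CPM in unstimulated cells. Neither receptor passed. Slc16a1 (MCT1), a carrier of lactate and short-chain fatty acids, had 187, 218 and 205 CPM in stimulated cells, against 33.9 and 38.4 CPM in unstimulated cells, and with Slc16a3 it made up the 2 of 6 tested genes of that list that rose.

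Outside the lists, the genes named for the largest folds at 5 CPM or more included several with no count on one side. Pkp2, a desmosome protein (ENSMUSG00000041957, chromosome 16 at 16213318 to 16272712), had 12.8, 11.8 and 15.8 CPM in stimulated cells, against 0 and 0 CPM in unstimulated cells and was at least 221-fold higher in stimulated cells. Grin1, a subunit of the NMDA receptor, was at least 108-fold higher. Smtnl2 held 4180 counts over the stimulated and 2 over the unstimulated libraries, a ratio of 1435 (95% counting interval 397 to 11851). The metallothioneins, small proteins that bind zinc and copper, were among them. Mt1 had 73.9, 67.8 and 95.7 CPM in stimulated cells, against 0.0853 and 0.116 CPM in unstimulated cells, a log2 fold change of 9.54 ± 0.62 (SE; edgeR adjusted p = 4.82e-10), and Mt2 was at least 88.8-fold higher, though 73.5% of its exon bases are shared with another gene. Ak4, a mitochondrial adenylate kinase, had 70.0, 72.3 and 66.8 CPM in stimulated cells, against 0.171 and 0.154 CPM in unstimulated cells, and Emilin2, a matrix glycoprotein, had 68.8, 82.9 and 91.4 CPM in stimulated cells, against 0.213 and 0.270 CPM in unstimulated cells.

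Among genes eligible by the naming rule given below, at a mean of 5 CPM or more in unstimulated cells, the largest falls were those of Tmem121b, St8sia6, Ccr9, Prg4 and Chil5. Tmem121b (ENSMUSG00000094626, chromosome 6 at 120488939 to 120493807) had 0, 0 and 0 CPM in stimulated cells, against 6.32 and 4.9 CPM in unstimulated cells and was at least 134-fold lower in stimulated cells, with no count in any of them. St8sia6, a sialyltransferase, had 4.44, 1.68 and 5.5 CPM in stimulated cells, against 264 and 184 CPM in unstimulated cells. Prg4, the lubricating proteoglycan lubricin, had 0.657, 0.335 and 0.211 CPM in stimulated cells, against 23.7 and 18.9 CPM in unstimulated cells, and Chil5, a chitinase-like protein, had 0.205, 0.0838 and 0.211 CPM in stimulated cells, against 10.6 and 6.72 CPM in unstimulated cells. The last 3 had log2 fold changes of -5.85 ± 0.46, -5.71 ± 0.83 and -5.65 ± 0.66 (SE; edgeR adjusted p = 5.64e-09, 1.39e-05 and 1.01e-06). By the same rule at 50 CPM or more, the smallest p among genes that fell belonged to Itga4, given above, followed by Adgre5 (CD97), an adhesion receptor. Adgre5 had 121, 124 and 126 CPM in stimulated cells, against 511 and 508 CPM in unstimulated cells. Il6ra, the receptor for IL-6, had 18.9, 23.6 and 16.4 CPM in stimulated cells, against 258 and 222 CPM in unstimulated cells, and Tgfbr2, the receptor for TGF-beta, had 156, 124 and 123 CPM in stimulated cells, against 575 and 550.4 CPM in unstimulated cells. Adgre5, Il6ra and Tgfbr2 had log2 fold changes of -2.04 ± 0.13, -3.61 ± 0.24 and -2.07 ± 0.14 (SE; edgeR adjusted p = 2.82e-10, 6.9e-10 and 1.07e-09). Adgre5 shares 24.6% of its exon bases with another gene. Selenbp1, a selenium-binding protein, had 61.5, 56.2 and 56.6 CPM in stimulated cells, against 1.54 and 1.66 CPM in unstimulated cells, a log2 fold change of 5.18 ± 0.21 (SE; edgeR adjusted p = 1.54e-12).

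Whether niacin or the genotype label altered the response was asked by testing the difference of the stimulation effects. Without niacin, knockout-labelled cells had 3 stimulated and 3 unstimulated libraries, and wild-type-labelled cells in niacin had as many, none of them shared with the groups above. By edgeR no gene of 16882 (0%) passed for the effect with niacin minus the effect without it, with 1143 genes at an unadjusted p under 0.05 and a smallest adjusted p of 0.24. No gene passed for the effect in knockout-labelled minus that in wild-type-labelled cells either, with 1850 genes at an unadjusted p under 0.05 and a smallest adjusted p of 0.181 (Cd7, difference -1.75). DESeq2 called 1 gene higher (Gm26789, log2 difference 7.15) for the niacin difference, and 26 higher and 42 lower for the label difference. Limma voom with sample quality weights called none for the niacin difference, and 1247 higher and 858 lower for the label difference. Leaving out wild-type-labelled stimulated library 3 in niacin gave 103 higher and 18 lower genes for the label difference. In these other groups 3 libraries stood apart from the rest of their group on the second principal component: knockout-labelled unstimulated library 3 without niacin (77.7, against -7.92 and -5.12), and wild-type-labelled stimulated libraries 1 and 2 in niacin (35.2 and 22.5, against -3.36). The first also had the fewest counts of all libraries, 13205565, and the largest share of ribosomal RNA-like counts, 4.57%. It alone lacks the tag jax in its deposited name, the meaning of which is not known here. Leaving them out together gave no call for either difference. Leaving out unstimulated library 2 of the knockout-labelled cells in niacin gave 1 lower gene (Fzd7) for either difference, and leaving out stimulated library 2 of those without niacin gave 1 lower gene (Susd2) for the niacin difference. Simulated data gave all groups the same mean except for the changed genes, and held no library that stood apart. There the test recovered 12.5% of genes whose effect differed 2-fold by niacin and 65.6% of those that differed 8-fold. For the label it recovered 15.2% and 58.7%, and 8.89% of its calls were false, against 3.37% for niacin. The real groups differed in far more genes, so these rates do not measure what the tests here could miss. The absence of edgeR calls holds for this model and these libraries, and other settings did call genes.

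The effects can be set side by side. Of all 16882 genes tested, 4256 were called higher and 4647 lower without niacin. With the wild-type label in niacin these counts were 4396 and 4492. Of the genes called higher here, 3442 were also called higher without niacin (83.2% of those here and 80.9% of those there), and 3264 were called lower in both (76.5% and 70.2%). In wild-type-labelled cells in niacin, 3387 were called higher in both (81.9% and 77.1%) and 3154 lower in both (73.9% and 70.2%). The opposite call was made for 1 gene (Hs3st1) in the first case and 5 (Cpsf6, Hdac2, Pno1, Srsf6 and Pdlim4) in the other, named here after their values were seen. The calls here of all 6 were lost without unstimulated library 3 (edgeR adjusted p = 0.0638 to 0.124), those of Hdac2 and Srsf6 without any 1 of the 5 libraries, and those of Hs3st1, Hdac2 and Pno1 with the replicate block (0.0531, 0.0524 and 0.0559). Without the 3 libraries that stood apart, 3917 were higher and 4141 lower in both without niacin, and 3275 and 2638 in wild-type-labelled cells, which then had 1 stimulated library. Vegfa differed by 1.37 ± 0.73 (SE; edgeR adjusted p = 0.718) with niacin minus without it, and by 0.62 ± 0.64 (SE; edgeR adjusted p = 0.992) when the 3 libraries were left out. Foxp3 differed by 0.37 ± 0.22 (SE; edgeR adjusted p = 0.718). Tfrc, with a log2 fold change of 3.86 ± 0.52 here and 1.89 ± 0.40 in wild-type-labelled cells (SE), differed by 1.97 ± 0.60 (edgeR adjusted p = 0.337), and by 1.30 ± 0.49 (0.452) when they were left out. For Hk2 the effects were 6.07 ± 0.69 here, 5.94 ± 0.57 without niacin and 5.11 ± 0.53 with the wild-type label (SE). For Il7r they were -4.28 ± 0.34, -3.62 ± 0.32 and -5.30 ± 0.35 (SE) in the same order. A p that misses the threshold does not show that effects are equal. The standard error of a difference had a median of 0.478 over all genes for the niacin difference and 0.477 for the label difference. The absolute difference itself had a median of 0.392 for niacin and 0.447 for the label.

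**Figure D4:**
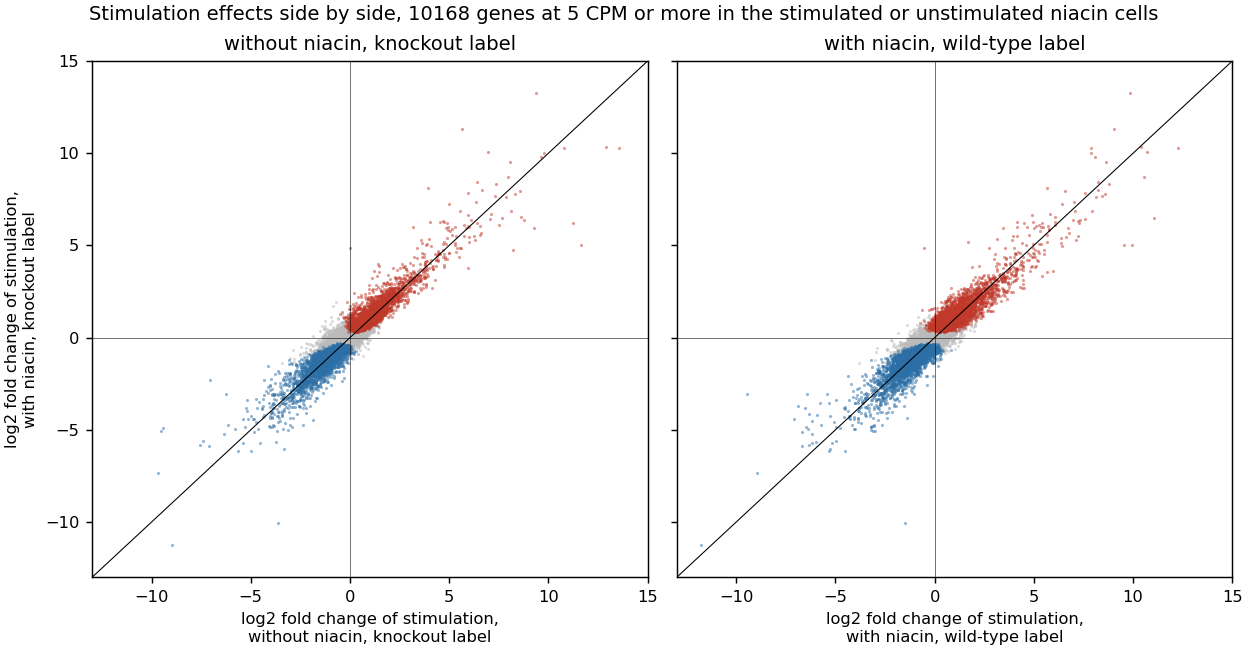
Log2 fold change of stimulation with niacin in knockout-labelled cells (y axis) against that without niacin in knockout-labelled cells (left panel) and that with niacin in wild-type-labelled cells (right panel), for 10168 genes at 5 CPM or more. Red and blue points passed as higher and lower in knockout-labelled cells with niacin, and the diagonal marks equal effects. Over all 16882 genes tested, drawn or not, the effects differed by more than 1 log2 for 3677 genes (left) and 3683 genes (right).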

How the data were processed

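Libraries were made from RNA of the cultured cells, amplified by SMART-seq V4, and read from both ends, per the labels' protocols. The deposited values are raw counts of reads per gene, made by the authors with Trimmomatic 0.38, STAR 2.7.0e and featureCounts 1.6.3, per the submitters' processing notes, which name both GRCm38.p5 and mm10. The sources used here give neither a strand setting nor the annotation release, and reads of overlapping genes on opposite strands may not be told apart. Of 143 named genes looked at, 9 shared over 20% of their exon bases with another gene. The table held 53379 gene IDs, of which 53274 had a symbol in GENCODE vM21, and 51335 had the coordinates of that release. Where a symbol belonged to several of these (159 such IDs), the ID with the most counts was used for lists. Positions are given as deposited.

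All 23 libraries were fitted with a mean per group (8 groups) in edgeR 4.0.16 (quasi-likelihood F test, TMM factors, filterByExpr with a minimum count of 10), leaving 16882 genes and 15 residual degrees of freedom. Benjamini-Hochberg adjustment ran over these genes, with a threshold of 0.05, and standard errors come from the F statistic. On simulated data the stimulation test, run on 16195 genes, recovered 21.5%, 59.7% and 84.6% of genes changed 2-, 4- and 8-fold. These data gave all groups the same mean except for the changed genes, unlike the real libraries. Ratios carry exact 95% counting intervals and a count of 0 is bounded at 3 counts over the group, both of which cover counting error only. No 2 libraries of a group agreed within counting noise. Promoter sequences are from RefSeq (GRCm38.p6), with the entry nearest the 5′ end of each gene.

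Members and lists were chosen with earlier results of these data known. Named genes are Hcar2, up to 12 per direction with the largest fold changes at 5 CPM or more, and up to 6 with the smallest p at 50 CPM or more. Those picked by fold or p had to pass the threshold and not overlap between the groups in CPM. Symbols that start with Gm and a digit, end in Rik or hold -ps were left out. The lack of overlap in these genes was thus set by the choice. The share of all genes without overlap was not counted, so lack of overlap in other named genes is a description only. From each list, the first 4 members, the 3 largest changes per direction and those against the majority were eligible, and not all are described. Tnfrsf4, Ctla4, Irf4, Myc, Lta, Lif, Gapdh, Ldha, Egln1, P4ha2, Scd2, Srebf2, Slc7a5, Klf2, Tcf7, Cxcr6, Bcl6, Lrrc32, Trdc and Klra8 were named outside this rule, after their values were seen. Other settings were DESeq2 1.42.0, RLE factors, no filter on low counts, a replicate block, limma 3.58.1 voom with quality weights, only the compared groups, and each library left out in turn. Leaving out 3 libraries of other groups that stand apart was chosen after seeing the data. A few genes that these rules select are not reported here.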

Additional observations from a re-analysis of the deposited data

How the results depend on the processing

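No gene called for stimulation was called in the opposite direction under any of the 12 other settings. The calls numbered 3699 to 5329 higher and 4147 to 5993 lower under settings that kept all 5 libraries. They numbered 2794 to 3822 higher and 2832 to 3787 lower with 1 of the 5 left out, the lowest without unstimulated library 2. RLE factors moved the median of all genes to -0.15, a shift under 0.1. The numbers pair only libraries 2 and 3 across the groups, whose deviations from the group mean correlated at 0.0296 and 0.0819. With 2 unstimulated libraries these deviations mirror each other, and the unmatched stimulated library 1 and unstimulated library 2 correlated at 0.0798. The check therefore cannot decide whether libraries were paired, and the main fit did not pair them. With the replicate block, 4019 genes were higher and 4147 lower, and none passed for either difference. For the niacin difference, DESeq2 gave 1 higher, and no filter on low counts gave 199 higher and 46 lower. For the label difference these settings gave 26 higher and 42 lower (DESeq2) and 158 higher and 103 lower (no filter), and voom gave 1247 higher and 858 lower. With 1 library left out, the niacin difference ranged over 0 to 0 higher and 0 to 1 lower, and the label difference over 0 to 103 higher and 0 to 18 lower. The cause of these moves was not tested. Of the gene values under other settings, 1923 kept their direction and side of the threshold, 62 lost and 28 gained a call, and 10 changed sign, all without a call. With 1 library left out, the log2 fold change ranged over -0.48 to 0.30 for Naprt, -0.50 to 1.62 for Ffar2, -0.26 to 0.24 for Cd44, -1.17 to 0.28 for Gzma and -0.83 to 0.28 for H2-Aa. Hcar2 passed only with voom (log2 fold change -1.22, adjusted p = 0.037). With 2 or 3 libraries a group, small differences at low counts are beyond the precision of these data.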

Other observations

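Targets of p53, which halts or kills damaged cells, passed in either direction about as often as all genes did. Of 22 tested, 5 rose and 5 fell, beside 24.5% and 25.3% of all genes, with a median log2 fold change of 0.24. Cdkn1a was among those that rose, as given above, and Gtse1, a regulator of p53 in G2, had 119, 124 and 145 CPM in stimulated cells, against 22.5 and 25.3 CPM in unstimulated cells. Sesn1, a stress-responsive sestrin, fell, at 81.2, 82.5 and 63.3 CPM in stimulated cells, against 252 and 213 CPM in unstimulated cells, while its relative Sesn2, which ATF4 also raises, was higher by a log2 fold change of 2.27 ± 0.30 (SE; edgeR adjusted p = 5.46e-06). Mdm2, the most direct p53 target, had 145, 132 and 162 CPM in stimulated cells, against 131 and 125 CPM in unstimulated cells and did not pass (edgeR adjusted p = 0.194). The BCL2 family, which sets the threshold for cell death, was likewise near these shares, with 4 of 15 higher and 3 lower, against 1 and 1 without unstimulated library 2 and 1 lower without unstimulated library 3. Bcl2l1 (BCL-XL), a survival protein, had 136, 128 and 137 CPM in stimulated cells, against 49.5 and 70.2 CPM in unstimulated cells, and its call was lost without unstimulated library 2 (edgeR adjusted p = 0.00314, against 0.069 without it). Bak1, a pore-forming member, had 6.45, 8.5 and 7.53 CPM in stimulated cells, against 1.62 and 2.39 CPM in unstimulated cells, a log2 fold change of 1.90 ± 0.35 (SE; edgeR adjusted p = 0.000201).

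Genes of protein folding and redox balance leaned upwards. Of 20 genes of the unfolded protein response, 13 rose and 2 fell, the lower ones numbering 0 or 1 without any 1 library. Xbp1, its transcription factor, had 999, 1085 and 1044 CPM in stimulated cells, against 169 and 196 CPM in unstimulated cells, and Sdf2l1, a chaperone partner in the endoplasmic reticulum, had 164, 185 and 197 CPM in stimulated cells, against 37.4 and 50.0 CPM in unstimulated cells. Their log2 fold changes were 2.51 ± 0.21 and 2.06 ± 0.40 (SE; edgeR adjusted p = 1.87e-08 and 0.000262). Of 21 targets of the antioxidant factor NRF2, 12 rose and 1 fell. Hmox1, heme oxygenase, had 14, 12.1 and 12.5 CPM in stimulated cells, against 2.52 and 1.97 CPM in unstimulated cells, and Tkt, transketolase of the pentose phosphate pathway, had 779, 819 and 805 CPM in stimulated cells, against 187 and 229 CPM in unstimulated cells. Nqo1, the usual NRF2 reporter, overlapped at 5.26, 10.4 and 9.47 CPM in stimulated cells, against 5.93 and 6.22 CPM in unstimulated cells, and Gclc, which limits glutathione synthesis, fell, at 74.8, 86 and 85.6 CPM in stimulated cells, against 129 and 135 CPM in unstimulated cells. Of 10 polyamine and hypusine genes, 5 rose and none fell. Odc1, the first enzyme of polyamine synthesis, had 476, 493 and 497 CPM in stimulated cells, against 85 and 106 CPM in unstimulated cells, and Eif5a, the factor that carries hypusine, had 2527, 2727 and 2839 CPM in stimulated cells, against 769 and 922 CPM in unstimulated cells.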
